A study of Mus musculus with 14 samples.

Results

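The cell cycle and E2F target genes described here are 35 genes that a dividing cell needs to copy its DNA and to separate its chromosomes. They were chosen by name, as a set of widely used proliferation genes, with earlier results of these data known. All 35 were found among the 23284 genes of the count files. Each of the 35 also passed the filter on low counts, which left 14804 genes to test. RNA sequencing of whole tumour tissue covered 14 primary small cell lung cancers of genetically engineered mice. By their labels, 7 tumours carried the genotype Rb1/Trp53 (titles Rbp53SCLC, called RP 1 to RP 7) and 7 the genotype Rb1/Trp53/Crebbp (titles Rbp53CrebbpSCLC, called RPC 1 to RPC 7). Loss of Rb1 and Trp53 is therefore common to both groups, and the genotypes differ by Crebbp, the gene of a histone acetyltransferase that serves as a transcriptional coactivator. The labels name no treatment, age, sex, batch, Cre driver or deleted exon, and whether the tumours of a group came from different mice is not stated either. The p-values below therefore cover the spread from sample to sample, which may be partly technical.

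The retinoblastoma protein encoded by Rb1 binds E2F transcription factors and holds back the genes needed to enter S phase until cyclin-dependent kinases phosphorylate it. A later wave of genes, for the passage through G2 and mitosis, is held back in resting cells by the DREAM complex, which reads a promoter element called CHR (cell cycle genes homology region), and is switched on by the MuvB core with B-Myb and FOXM1. Small cell lung cancer is a fast-growing neuroendocrine carcinoma in which RB1 is lost as a rule, and the MYC family genes MYC, MYCL and MYCN are alternately amplified or highly expressed in it. In whole tumour tissue, fewer cells of a type and less RNA of a gene per cell cannot be told apart, so a level below is that of the tissue sample.

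The promoters of some members hold letters that match these kinds of control element. Only letters were searched, and binding or function was not tested. The stretches below were chosen because the expression results turn on these genes or because they carry the matches most plainly. Windows from 250 bases before to 50 bases after the gene start, 300 bases in all, were taken from RefSeq on the GRCm38.p6 assembly. By symbol, 29 of the 35 members were matched, and Ccne2, Mcm4, Gmnn, Ccna2, Foxm1 and Aurkb were not. The reads had been counted on mm9, so these windows serve as sequence context only. E2F-type matches (TTTGGCGC, TTTCCCGC, TTTGCCGC or TTTCGCGC, on both strands, where matches on opposite strands may overlap) were found in 7 of the 29 windows, or 24.1%, against 2.32% of the 27025 windows of all genes in the table. CHR letters (TTTGAA or TTCGAA, both strands) were in 14 of 29, or 48.3%, against 19.4% of all windows. CCAAT, on both strands, was in 22 of 29, or 75.9%, against 37.9%, and both CHR and CCAAT in 14 of 29 against 7.7%.

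The matches were divided between the roles. E2F-type letters were in 6 of the 14 matched genes of the G1/S roles (Mcm3, Mcm5, Mcm6, Mcm7, Cdc6 and Cdt1) and in 1 of the 15 of the S to M roles (Cdk1). CHR letters were in 11 of the 15 S to M genes and in 3 of the 14 G1/S genes. Each stretch printed is the 160 bases directly before the annotated start of the gene, read 5′ to 3′ along the gene's strand, with every match to the letters above in capitals. Mcm5 (chr8:75109349-75109508, + strand) and Mcm6 (chr1:128359706-128359865, − strand), for 2 subunits of the replicative helicase, carry E2F-type and CCAAT letters.
Mcm5: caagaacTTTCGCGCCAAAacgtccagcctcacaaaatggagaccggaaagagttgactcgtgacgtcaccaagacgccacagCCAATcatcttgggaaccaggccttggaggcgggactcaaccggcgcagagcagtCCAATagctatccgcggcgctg
Mcm6: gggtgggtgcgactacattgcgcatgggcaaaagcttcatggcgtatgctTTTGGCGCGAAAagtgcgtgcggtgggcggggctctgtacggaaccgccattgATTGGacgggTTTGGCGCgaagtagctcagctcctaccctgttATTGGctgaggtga
The stretch of Cdk1 (chr10:69352913-69353072, − strand), the kinase that drives mitotic entry, holds all 3 kinds of letters. Those of Top2a (chr11:99024190-99024349, − strand), which encodes topoisomerase II alpha, Kif11 (chr19:37376222-37376381, + strand), a spindle motor, and Mki67 (chr7:135716380-135716539, − strand), the Ki-67 gene, hold CHR and CCAAT letters.
Cdk1: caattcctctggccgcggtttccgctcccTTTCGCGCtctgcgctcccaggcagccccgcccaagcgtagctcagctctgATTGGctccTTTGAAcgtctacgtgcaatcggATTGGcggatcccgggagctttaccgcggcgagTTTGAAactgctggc
Top2a: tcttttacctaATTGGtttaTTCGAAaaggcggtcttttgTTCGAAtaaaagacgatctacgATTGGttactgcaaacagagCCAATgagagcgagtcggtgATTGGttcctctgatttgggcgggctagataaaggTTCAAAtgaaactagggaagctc
Kif11: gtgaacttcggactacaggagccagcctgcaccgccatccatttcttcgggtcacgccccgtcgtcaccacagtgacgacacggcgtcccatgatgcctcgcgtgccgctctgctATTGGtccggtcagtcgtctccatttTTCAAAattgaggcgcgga
Mki67: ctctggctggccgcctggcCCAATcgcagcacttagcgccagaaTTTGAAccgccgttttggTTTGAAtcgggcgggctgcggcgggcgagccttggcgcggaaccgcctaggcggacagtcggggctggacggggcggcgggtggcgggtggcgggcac
Rrm1 (chr7:102441535-102441694, + strand) and Rrm2 (chr12:24708094-24708253, + strand), for the subunits of ribonucleotide reductase, and Tyms (chr5:30073626-30073785, − strand), for thymidylate synthase, are shown because they had, with Kif11, the smallest p of the members between the genotypes. The Rrm1 and Rrm2 stretches hold CCAAT letters. That of Tyms holds no match, which says only that these letters are not in this stretch.
Rrm1: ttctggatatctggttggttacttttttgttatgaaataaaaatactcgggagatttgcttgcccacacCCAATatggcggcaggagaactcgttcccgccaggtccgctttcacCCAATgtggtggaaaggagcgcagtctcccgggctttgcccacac
Rrm2: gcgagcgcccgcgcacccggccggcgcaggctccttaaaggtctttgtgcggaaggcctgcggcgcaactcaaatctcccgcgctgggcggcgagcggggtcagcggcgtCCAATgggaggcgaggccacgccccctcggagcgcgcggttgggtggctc
Tyms: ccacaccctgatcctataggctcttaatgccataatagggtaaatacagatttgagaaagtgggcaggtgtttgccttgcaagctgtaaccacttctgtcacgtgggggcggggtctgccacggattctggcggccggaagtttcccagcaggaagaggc

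Libraries held 10060969 to 24052799 counts in genes. The neuroendocrine identity named by the labels was present, since 6 markers of it (Calca, Chga, Syp, Insm1, Uchl1 and Ncam1) were each above 1 CPM (a gene's read count relative to the library's counts in genes, scaled by TMM, the trimmed mean of M values) in each of the 14 libraries, with a summed level of 1360 to 6786 CPM. RPC 3, 5 and 6 stood apart from the other 11 libraries in markers of endothelial cells, fibroblasts, macrophages, T and NK cells, alveolar cells and club cells. Summed over these 39 stromal and lung markers the level was 96.9 to 362 CPM in the 3 libraries and 1235 to 7219 CPM in the others. At or above 1 CPM were 8, 10 and 9 of the 39 markers in RPC 3, 5 and 6, against 32 to 39 in each other library. At 0 counts were 11, 14 and 15, among them the endothelial genes Cdh5, Emcn and Cldn5 and the macrophage gene Emr1 in all 3 and the collagen gene Col3a1 in RPC 5 and RPC 6, against 0 markers in each other library. The titles do not set these 3 libraries apart from the other RPC tumours, and the reason for their marker levels was not tested. Crebbp itself averaged 77.1 ± 13.1 CPM in RP against 64.2 ± 3.69 CPM in RPC (SD, n = 7 each), with ranges that overlapped, and a count over the whole gene does not check a deletion of unnamed exons.

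The combined level of the 35 genes differed more among tumours of a genotype than between the genotypes. Their summed level was 5749, 6325, 10011, 4902, 6480, 5447 and 6717 CPM in RP 1 to RP 7. It was 7038, 6119, 8172, 6416, 8729, 9559 and 5933 CPM in RPC 1 to RPC 7. RP 3 was the highest of all tumours, and the 3 RPC tumours with few stromal transcripts, RPC 3, 5 and 6, came next. The means were 6519 ± 1665 CPM in RP and 7424 ± 1409 CPM in RPC (SD, n = 7 each), and the groups overlapped over most of their range. The 4 RPC tumours other than RPC 3, 5 and 6 averaged 6376 ± 484 CPM (SD, n = 4), and those 3 averaged 8820 ± 698 CPM (SD, n = 3).

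**Figure D1:**
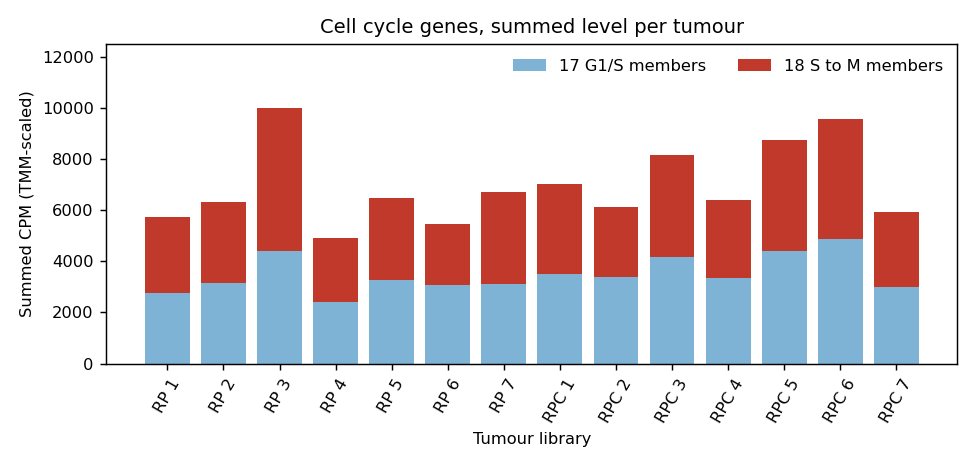
Summed CPM of the 35 cell cycle and E2F target genes in each of the 14 tumours, split into the 17 genes of the G1/S roles and the 18 of the S to M roles. RP 3 reached 10011 CPM, and RPC 3, 5 and 6 reached 8172, 8729 and 9559 CPM, above every other tumour.

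A score that weights each gene equally, the mean over members of log2 CPM minus the gene's mean over libraries, gave a like order. It was −0.30, −0.09, 0.57, −0.47, −0.09, −0.40 and −0.01 in RP 1 to RP 7. In RPC 1 to RPC 7 it was 0.05, −0.18, 0.34, −0.06, 0.37, 0.52 and −0.24. RP 3 lay above the median of the 14 libraries in 35 of 35 genes, RPC 6 in 34, RPC 5 in 33 and RPC 3 in 30. At the other end RP 4 and RP 6 lay above it in 3 genes each and RPC 7 in 4. For 34 of the 35 genes the highest library was RP 3 or one of RPC 3, 5 and 6, and for 26 the lowest was RP 1, RP 4 or RP 6.

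The tumours at the top did not have the same emphasis. RP 3 was weighted to mitosis, with a score of 0.34 over the 17 G1/S genes and 0.79 over the 18 S to M genes. RPC 6 was even, at 0.55 and 0.50. Among the low tumours, RP 6 had −0.17 for G1/S and −0.62 for S to M, and RPC 2 had −0.05 and −0.31. Of the 14 members with CHR letters, 8 were highest in RP 3 and 5 in RPC 6. Of the 15 matched members without these letters, 3 were highest in RP 3 and 7 in RPC 6. Because 11 of the 14 were S to M genes, these counts are not separate from the role split. Of the 7 members with E2F-type letters, 3 were highest in RP 3 and 3 in RPC 6. For the 22 without, the counts were 8 and 9.

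**Figure D2:**
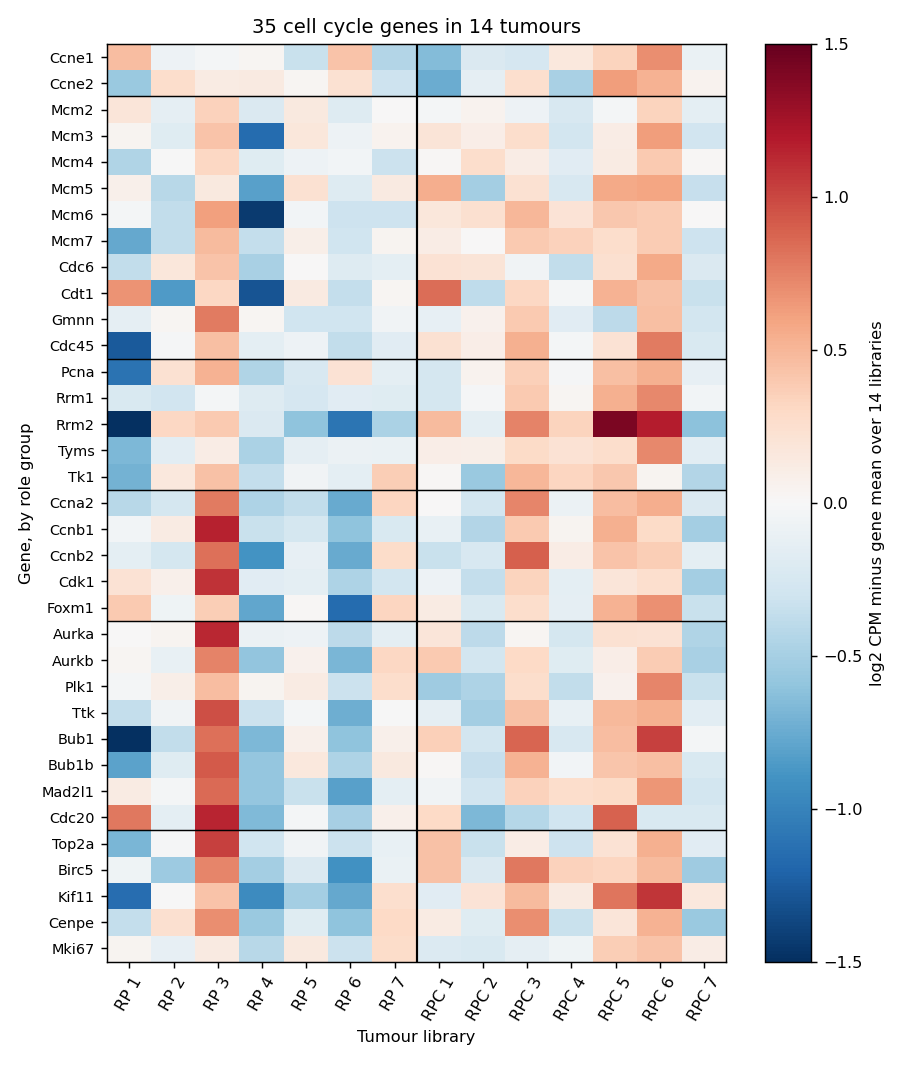
Log2 CPM of each member minus that gene's mean over the 14 libraries, genes in rows ordered by role and tumours in columns. RP 3 is high in nearly every row and most so in the S to M rows, RPC 3, 5 and 6 are high in most rows, and RP 4 and RP 6 are low.

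The members ranged over libraries from 1.5-fold for Mcm2 to 8.63-fold for Rrm2 between the lowest and the highest tumour, with a median of 3.02-fold, and 3 of the 35 stayed under 2-fold. Their levels tended to go up and down together. Over the 14 libraries the mean Pearson r between members' log2 CPM was 0.53, against 0.0065 between all tested genes, and 576 of the 595 pairs of members were above 0. It was 0.68 within the S to M roles, 0.45 within the G1/S roles and 0.49 between these blocks. Over the 11 libraries with stromal transcripts these values were 0.64, 0.27 and 0.35, and 0.41 over all members. These values describe genes of the same libraries, which share depth and scaling, and they carry no test.

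The pair with the highest r was Ccnb1 and Cdk1, at 0.95. Their products, cyclin B1 and CDK1, form the kinase complex that starts mitosis. Both genes were highest in RP 3, at 375.9 and 363.1 CPM. The next highest values were 245.1 CPM in RPC 5 and 216.9 CPM in RPC 3. RP 3 thus weighs on this r, which was not computed without it. Ttk and Bub1b, kinases of the spindle checkpoint, and Ccna2, cyclin A2, had the highest mean r with the other members, at 0.68, 0.67 and 0.67. The E-type cyclins, which bring cells from G1 into S phase, followed the others least. Ccne1 had a mean r of 0.05 (−0.27 over the 11 libraries) and Ccne2 of 0.27 (−0.07).

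The comparison that the design was built for is RPC against RP. None of the 35 members passed it over all 14 tumours. Their fold changes were mostly small and positive, and those with the smallest p were 3 genes of deoxynucleotide supply, Tyms, Rrm1 and Rrm2, and the spindle motor gene Kif11. In edgeR's quasi-likelihood test, with adjustment over all 14804 genes by the Benjamini-Hochberg method, 0 of 35 members were called at 0.05, where 2.21% of all genes were. At an unadjusted p under 0.05 there were 4 members, or 11.4%, where 21.3% of all genes passed, so the members' share was below the background by that measure. Of the 35, 29 had a positive log2 fold change, against 50.2% of all genes, and their median was 0.20, against 0.00 for all genes. The groups overlapped for every member, where 1.17% of all genes did not overlap.

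**Figure D3:**
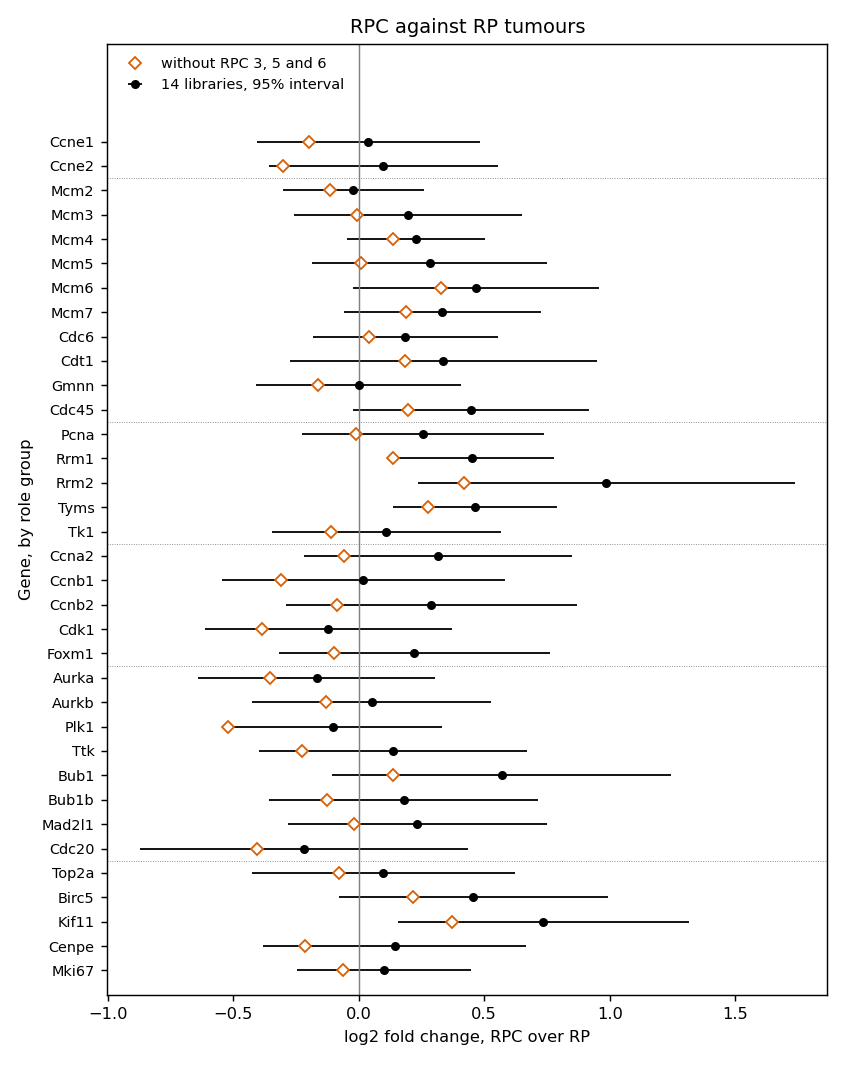
Log2 fold change of RPC over RP for each member with its 95% confidence interval from the edgeR fit over 14 tumours, and the estimate without RPC 3, 5 and 6. The intervals of Rrm2, Kif11, Tyms and Rrm1 lie above 0 before adjustment, and most of the second set of estimates lie closer to 0 or below it.

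Among the G1/S cyclins, Ccne1 was between 48.0 and 89.5 CPM in RP tumours (median 63.5) and between 41.4 and 105.2 CPM in RPC tumours (median 60.7). The ranges were nested, and the log2 fold change was 0.04 (SE 0.21, edgeR adjusted p = 0.933). Ccne2 was between 44.1 and 77.8 CPM in RP (median 70.2) and between 38.6 and 99.7 CPM in RPC (median 67.0), and the estimate was 0.10 (SE 0.21, edgeR adjusted p = 0.814). Its highest values were in RPC 5 and RPC 6. Without RPC 3, 5 and 6 the log2 fold changes of both genes were negative, at −0.20 and −0.30.

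The licensing and helicase group holds the MCM genes, whose products form the ring that opens DNA at origins, the loading factors Cdc6 and Cdt1, the CDT1 inhibitor geminin (Gmnn) and Cdc45, which joins the active helicase. Of the 10 genes, 8 had positive fold changes, the median was 0.26, and adjusted p ran from 0.256 to 0.999. Mcm6 was between 121.6 and 504.2 CPM in RP (median 265.9) and between 329.9 and 466.6 CPM in RPC (median 390.2). RP 3 was above every RPC tumour, while the other 6 RP tumours were below every one (log2 fold change 0.47, SE 0.23, edgeR adjusted p = 0.256). Cdc45 was between 29.8 and 97.6 CPM in RP and between 61.1 and 122.6 CPM in RPC, and its fold change on the log2 scale was 0.45 (SE 0.22, edgeR adjusted p = 0.258). Mcm2, which had the highest level of the group, was at 451.2 ± 67.8 CPM in RP and 438.1 ± 58.3 CPM in RPC (SD, n = 7 each). Its log2 fold change was −0.02 (SE 0.13) with a 95% interval from −0.30 to 0.26.

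Replication clamp and nucleotide synthesis genes had the highest group median, 0.45, with positive values for all 5. Tyms, whose product makes the thymidylate that DNA synthesis needs, was between 44.9 and 77.4 CPM in RP (median 64.9) and between 64.2 and 118.4 CPM in RPC (median 83.2). Of the RPC tumours 4 were above every RP tumour. The log2 fold change of Tyms was 0.46 (SE 0.15, 95% interval 0.13 to 0.79, edgeR adjusted p = 0.111). Rrm1, for the large subunit of the enzyme that reduces ribonucleotides, was between 243.6 and 290.9 CPM in RP (median 259.1), a narrow spread. It was between 247.6 and 489.4 CPM in RPC (median 304.4), and 5 of 7 RPC tumours were above every RP tumour. The log2 fold change was 0.45 (SE 0.15, 95% interval 0.12 to 0.78, adjusted p = 0.121).

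Rrm2, for the small subunit of the same enzyme, had the widest span. It was 44.7, 179.4, 190.8, 124.7, 95.4, 67.9 and 104.1 CPM in RP 1 to RP 7 and 201.6, 131.5, 243.4, 182.5, 386.2, 327.5 and 95.1 CPM in RPC 1 to RPC 7. RPC 5 and RPC 6 were the highest and RP 1 the lowest, and 4 RPC tumours were above every RP tumour (log2 fold change 0.99, SE 0.35, edgeR adjusted p = 0.132). Pcna, the sliding clamp of DNA polymerases and the most abundant of the group, was between 281.9 and 874.4 CPM in RP and between 508.0 and 879.7 CPM in RPC (0.26, SE 0.23, adjusted p = 0.534). With DESeq2 in place of edgeR, Tyms and Rrm1 were called higher (adjusted p = 0.0474 and 0.0486), where DESeq2 called 9.67% of all genes and 4.65% as higher.

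In the group of S to M cyclins, their kinase and the transcription factor Foxm1, 4 of 5 fold changes were positive (median 0.22). Ccna2 was between 121.1 and 352.7 CPM in RP (median 158.9) and between 169.5 and 341.0 CPM in RPC (median 205.1). RP 3 was the highest tumour, while every RPC tumour was above the RP median (log2 fold change 0.32, SE 0.25, edgeR adjusted p = 0.485). Ccnb2, for a B-type cyclin, was between 50.1 and 165.0 CPM in RP and between 73.8 and 173.7 CPM in RPC (0.29, SE 0.27, adjusted p = 0.558).

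Mitotic kinases and spindle checkpoint genes were split, with 5 of 8 positive and a median of 0.09. Bub1, a checkpoint kinase at kinetochores, was between 24.3 and 121.6 CPM in RP (median 52.8) and between 56.4 and 139.1 CPM in RPC (median 87.3), and the RPC over RP estimate was 0.57 log2 units (SE 0.32, edgeR adjusted p = 0.316). Mad2l1, the MAD2 checkpoint gene, stood at 0.23 log2 units (SE 0.24, edgeR adjusted p = 0.597). Cdc20, which activates the anaphase-promoting complex, was between 99.3 and 347.0 CPM in RP and between 98.3 and 291.5 CPM in RPC. Its estimate of −0.22 (SE 0.31, edgeR adjusted p = 0.703) was the lowest of the 35.

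Among the spindle, chromosome and growth fraction markers all 5 fold changes were positive, with a median of 0.14. Kif11, the kinesin that pushes spindle poles apart, was 61.5, 135.5, 182.7, 70.4, 95.3, 79.8 and 161.8 CPM in RP 1 to RP 7 and 120.8, 156.8, 188.8, 149.5, 236.8, 284.6 and 151.8 CPM in RPC 1 to RPC 7. RPC 3, 5 and 6 were above all other tumours, and 7 of 7 RPC tumours were above the RP median (log2 fold change 0.74, SE 0.27, edgeR adjusted p = 0.141). Birc5, which encodes survivin of the chromosomal passenger complex, was between 44.3 and 137.6 CPM in RP and between 57.0 and 143.1 CPM in RPC (0.46, SE 0.25, adjusted p = 0.311). Mki67, the gene of the Ki-67 antigen by which pathologists count growing cells, was at 736.6 ± 127 CPM in RP and 779.2 ± 150 CPM in RPC (SD, n = 7 each). Its log2 fold change was 0.10 with a 95% interval from −0.24 to 0.45 (adjusted p = 0.742), and the ranges overlapped, with 2 RPC tumours above every RP tumour.

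The positive lean did not hold without RPC 3, 5 and 6, the 3 highest RPC tumours. Leaving them out together with RP 3, the highest RP tumour, was not tested. Without RPC 3, 5 and 6 alone, 13 of 35 members were positive, the median log2 fold change was −0.06, and 0 members were called, where 0.0716% of 15358 genes were. At an unadjusted p under 0.05 there was 1 member, where 11.9% of all genes passed. It was the mitotic kinase gene Plk1, at −0.52 (edgeR adjusted p = 0.208). The estimates for Rrm1, Rrm2, Tyms and Kif11 there were 0.13, 0.42, 0.28 and 0.37. These 4 were also the members for which RPC 3, 5 and 6 were all above the other 11 tumours, as were 2.18% of all genes. With the stromal score as a term in the model instead, 12 members were positive and the median was −0.11. That score was −4.41 to −4.10 in RPC 3, 5 and 6 and −0.17 to 2.41 in the other tumours. The term therefore mainly sets the same 3 tumours apart and is no separate check. The highest RP tumour had the opposite weight: without RP 3, 34 of 35 members were positive, the median was 0.32 and 12 had an unadjusted p under 0.05, where 27.1% of all genes did. Of the members 0 were called there, where 6.0% of all genes were (lowest edgeR adjusted p = 0.060).

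How the cell cycle genes go with stromal transcripts was read from the 11 tumours that had them. Nearly all members were lower where stromal markers were higher, by small slopes that did not pass the test. The stromal score, the mean log2 deviation of the 39 markers, was 1.48, 1.01, 0.24, 1.67, 0.55, 1.27 and 2.41 in RP 1 to RP 7 and 0.50, 2.23, −4.10, −0.17, −4.23, −4.41 and 1.56 in RPC 1 to RPC 7. RP 3 had the lowest score of the RP tumours and the highest cell cycle level. In the edgeR fit over 11 tumours, with genotype in the model, 34 of 35 members had negative slopes, against 54.9% of all genes. The median was −0.19 log2 units per unit of score, against −0.03 for all genes. Of the 35, 0 were called, where 0.534% of all genes were, a share that includes markers of which the score is made. On simulated counts the test recovered 2% of slopes of 0.5, so it could not decide on slopes of the members' size.

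By role, mitotic kinases and checkpoint genes had the lowest median slope, −0.29, and licensing genes one of −0.14. At an unadjusted p under 0.05 there were 3 members, where 12.8% of all genes passed. These were Ccnb1 (−0.39), Cdk1 (−0.33) and the Aurora A kinase gene Aurka (−0.33). RP 3 carried much of this. Without it the median slope was −0.06, 24 of 35 were negative and 0 had an unadjusted p under 0.05, where 8.58% of all genes passed. Without RP 7, the tumour with the highest stromal score, the median slope was −0.33. As a description, the Pearson r between the cell cycle score and the stromal score over the 11 tumours was −0.48 (Spearman rho −0.50), and −0.72 without RPC 4 and RP 7, the tumours farthest from the median stromal score. Both scores come from the same libraries and scaling.

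**Figure D4:**
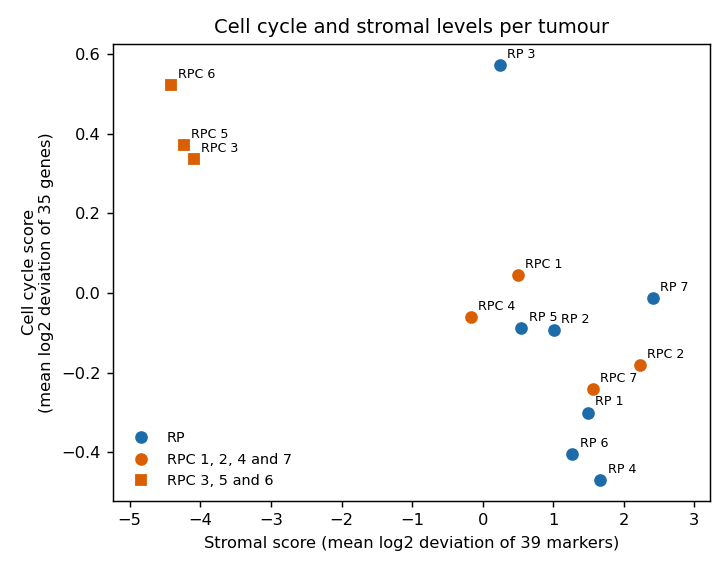
Cell cycle score of the 35 members against the stromal score of 39 markers, 1 point per tumour, in mean log2 deviation on both axes. RPC 3, 5 and 6 lie apart at stromal scores of −4.41 to −4.10 and cell cycle scores of 0.34 to 0.52, and RP 3 at 0.24 has the highest cell cycle score, 0.57.

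Over all 14 tumours, where RPC 3, 5 and 6 form a separate cluster, 35 of 35 slopes were negative and 3 members fell with the score, where 1.33% of all genes did. These were Rrm1, Plk1 and Rrm2 (edgeR adjusted p = 0.0127, 0.0138 and 0.0436). RPC 3, 5 and 6 were high in the cell cycle genes and almost without stromal transcripts. RP 3, with the highest cell cycle level, had a summed stromal level of 1792 CPM, the lowest of the RP tumours. The part of stromal content in the cell cycle levels was not tested beyond these fits.

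The MYC paralogs were each high in different tumours. Mycl1, the mouse L-Myc gene, was 272.7, 12.5, 88.4, 306.3, 153.8, 306.8 and 316.6 CPM in RP 1 to RP 7 and 5944, 1356, 2760, 4418, 313.0, 6114 and 505.4 CPM in RPC 1 to RPC 7. No slope of a member on it passed the test. With genotype in the model 13 of 35 slopes on log2 Mycl1 were positive, the median was −0.02, 0 were called where 0.00675% of all genes were, and 0 had an unadjusted p under 0.05 where 3.29% did. The only gene called was Mycl1 itself, whose slope on its own level was fixed in advance. Mycl1 was also called higher in RPC (log2 fold change 3.91, SE 0.77, edgeR adjusted p = 0.0246). These fits therefore cannot fully separate a tie to Mycl1 from a difference between genotypes. Without the genotype term 28 of 35 slopes were positive, against 48.5% of all genes, and the median was 0.02. Of the members 0 were called there, where 9 of 14804 genes were. RPC 1 and RPC 6 had the highest Mycl1 and cell cycle scores of 0.05 and 0.52. RPC 5, whose Mycl1 lay within the RP range, had a score of 0.37.

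Myc was at 661.0 CPM in RP 3 and at 22.8 CPM or less in the other RP tumours, and RPC 5 was the next highest at 49.5 CPM. Mycn was at 518.8 CPM in RP 5, whose cell cycle score of −0.09 was in the middle of the range, then at 34.5 CPM in RP 3 and 33.2 CPM in RPC 5. The tumour with the highest Myc was thus also the tumour with the highest cell cycle level, and that is a single tumour. With RP 3 in the fit, 34 of 35 members had positive slopes on log2 Myc (46.9% of all genes did) and 15 had an unadjusted p under 0.05, where 12.7% of all genes did. Of the 35, 0 were called, where 0.00675% of all genes were (lowest edgeR adjusted p = 0.209). The only gene called was Myc itself. Without RP 3 there were 27 positive slopes and 0 members with an unadjusted p under 0.05, where 7.61% of all genes passed.

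Mycn had a like dependence on single tumours. Over all 14, 33 of 35 slopes were positive, with 0 members called (0.0135% of all genes were, Mycn itself among them) and 0 at an unadjusted p under 0.05 (3.69% of all genes). Without RP 5 there were 15 such members, where 14.4% of all genes passed, and the median slope was 0.24. Without both RP 3 and RP 5 there were 2, where 9.61% passed, and the median was 0.14.

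**Figure D5:**
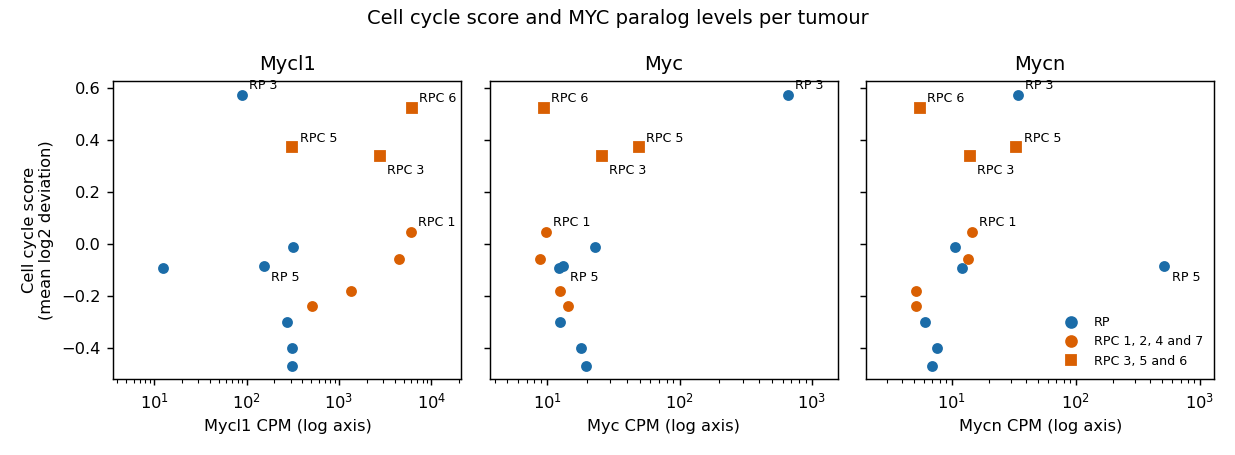
Cell cycle score of the 35 members against CPM of Mycl1, Myc and Mycn on log axes, 1 point per tumour. RP 3 alone has high Myc and the highest score, RP 5 alone has high Mycn with a score of −0.09, and RPC 1, 2, 3, 4 and 6, with the highest Mycl1, have scores from −0.18 to 0.52.

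Beyond the 35 genes, 86 further cell cycle genes (replication factors, condensins, kinetochore and spindle genes, and cyclins and kinases of G1) gave a like picture, with 3 exceptions that rose. Of the 86, 71 had positive fold changes in RPC, against 50.2% of all genes, with a median of 0.24. At an unadjusted edgeR p under 0.05 there were 13 of the 86, where 21.3% of all genes passed. The positive lean did not hold here either without RPC 3, 5 and 6, where 39 of the 86 were positive and the median was −0.02. With the stromal term, which mainly sets the same tumours apart, 37 were positive and the median was −0.04. Over all tumours edgeR called 3 of the 86 higher, where 1.09% of all genes were, and 0 lower. Pola2, the B subunit of DNA polymerase alpha, was 42.3, 33.2, 37.3, 38.3, 48.8, 36.8 and 60.2 CPM in RP 1 to RP 7 and 71.6, 104.3, 124.7, 96.2, 89.2, 103.4 and 65.0 CPM in RPC 1 to RPC 7. All 7 RPC tumours were above every RP tumour (log2 fold change 1.16, SE 0.18, edgeR adjusted p = 0.00899). Hells, a chromatin remodelling helicase needed for DNA methylation, rose by 1.09 log2 units (SE 0.22, edgeR adjusted p = 0.0246), and Fen1, the flap endonuclease of lagging strand synthesis, by 0.96 (SE 0.19, adjusted p = 0.0248). For each of these, 6 of 7 RPC tumours were above every RP tumour.

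The 3 genes share a chromosome. Pola2, Hells and Fen1 lie on mouse chromosome 19, as does Incenp, another gene of the wider list that encodes a chromosomal passenger protein (0.71, edgeR adjusted p = 0.100), which was singled out after its value was seen. Of all 501 tested genes of that chromosome 380 had positive fold changes, 85 were called higher or lower, and the median was 0.46. Over all tested genes 50.2% were positive, 2.21% were called and the median was 0.00. Kif11 is the only one of the 35 members there. The 82 wider genes on other chromosomes had 67 positive fold changes, 0 calls and a median of 0.22, and the 34 members elsewhere had a median of 0.19. Without RPC 3, 5 and 6 the calls of Pola2, Hells and Fen1 were lost (edgeR adjusted p = 0.091, 0.173 and 0.189), at log2 fold changes of 1.001, 0.62 and 0.67. With the stromal term they were not called either (edgeR adjusted p = 0.103, 0.186 and 0.227), at 1.04, 0.68 and 0.70. Hells and Fen1 were also lost without single tumours, RP 4, RP 5, RP 6 or RPC 3 for Hells (adjusted p from 0.05002 to 0.0573) and also RP 2 for Fen1 (0.0504 to 0.0604).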

How the data were processed

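RNA was measured in 14 libraries, 7 per genotype. Per the labels' protocols, mRNA was selected with oligo dT and made into NEBNext Ultra libraries. The authors deposited raw read counts per gene symbol, 1 file per library. The submitters' processing notes name bcl2fastq 1.8.2, TopHat2 2.0.12, HTSeq 0.6.1 and mm9, without settings. Neither the annotation nor the strand setting is stated in the sources used here, so reads of overlapping antisense genes or near-identical copies may be missing or misassigned. Rows that name no gene were left out: reads outside genes were 15.1% to 20.5% of a file, reads with several alignments 8.44% to 11.2% and ambiguous reads 0.883% to 1.09%. No pair of libraries of a genotype was a repeat (chi-square per degree of freedom at least 62.1 over 42 pairs).

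Counts were tested in R 4.3.3 with edgeR 4.0.16 (filterByExpr with minimum count 10 and total 15, TMM, quasi-likelihood F test, Benjamini-Hochberg adjustment over all genes tested, called at 0.05). CPM was TMM-scaled, with a prior count of 2 before taking log2. Slopes on the stromal score and on MYC paralogs had genotype as a covariate. Alternatives were DESeq2 1.42.0, voom of limma 3.58.1, other scaling and filters, a stromal term, a replicate block and leaving out libraries. Leaving out RP 3 and RP 5 together, and the list's median without Kif11, were added after seeing the data. On simulated counts for 14606 genes, RPC against RP, 23.5% of 98 simulated 2-fold changes and 76.3% of 97 simulated 4-fold changes were called, with 0 of 97 calls false. For the stromal slope, on 14754 genes, it recovered 2% of slopes of 0.5 and 31.3% of slopes of 1, with 2 of 35 calls false.

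The members, the wider list and the markers were chosen with earlier results of these data known. Genes were named by rule: any member called in a main fit, in each role group the 2 members with the smallest p and the most abundant one, Mki67, the MYC paralogs and called genes of the wider list. The other genes given with values of their own (such as Rrm2, Ccnb1, Cdk1, Aurka and Plk1) were named after their values were seen. One marker of the neuroendocrine list is not reported here.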

Additional observations from a re-analysis of the deposited data

Results flagged for a closer look

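Single tumours stood far from the other 6 of their genotype in 16 of 88 groups of values checked (35 members, 3 MYC paralogs, 3 genes of the wider list and 3 summed levels or scores, in each genotype), meaning that the gap to the nearest tumour, as a share of the group's range, passed the critical value of Dixon's test for 7 values. Chance alone marks about 5% of groups, and the members' groups are not independent of each other. Of the 16, 12 were RP 3. For the mitotic genes, RP 3 had 375.9 CPM of Ccnb1 (next RP tumour 184.9), 363.1 of Cdk1 (198.8), 206.8 of Aurka (97.8), 116.7 of Ttk (59.2), 254.1 of Bub1b (149.8) and 139.0 of Mad2l1 (83.5). It had 1353 CPM of Top2a (next 659.1) and 137.6 of Birc5 (79.3). For G1/S genes it had 123.7 CPM of Gmnn (next 74.0) and 290.9 of Rrm1 (263.7).

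RP 3 was also apart in the summed level of the 35 members, at 10011 CPM against 6717 in the next RP tumour, and in Myc, at 661.0 CPM against 22.8. The other marked values were Tyms in RPC 6, at 118.4 CPM (next RPC tumour 87.3), Myc in RPC 5, at 49.5 CPM (26.1), Mycn in RPC 5, at 33.2 CPM (14.6), and Mycn in RP 5, at 518.8 CPM (34.5).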

How the results depend on the processing

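The count of members called in RPC against RP stayed at 0 whichever of the 14 tumours was left out. So did the counts for the MYC paralog slopes, and the count for the stromal slope whichever of its 11 tumours was left out. It was 2 with DESeq2, and the count for the stromal slope was 3 over all 14 tumours. The cause was not tested. Leaving out 1 tumour, the median log2 fold change of the members ran from 0.11 to 0.32 and the median stromal slope from −0.33 to −0.06. Directions of small fold changes turned. With the stromal term, Ccne2 was −0.26, Ccne1 −0.22, Pcna −0.031, Ccna2 −0.080, Ccnb2 −0.12, Mad2l1 −0.11 and Mki67 −0.064. Without RPC 3, 5 and 6 they were −0.30, −0.20, −0.013, −0.057, −0.085, −0.020 and −0.062. With voom Ccne1 was −0.00022. Leaving out 1 tumour, Ccne1 ran from −0.10 to 0.13, Ccne2 from −0.012 to 0.20, Mcm2 from −0.089 to 0.038 and Cdc20 from −0.44 to 0.010.

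Genotypes share replicate numbers in the labels, but same-numbered tumours did not deviate together in every pair (r from −0.05 to 0.32, with 0.29, 0.22 and 0.32 for numbers 3, 5 and 7), and numbers 3 and 5 were the only RP tumours that correlated best with their own number. With the number as a replicate block, 0 members were called, 30 were positive and the median was 0.24, and Pola2, Hells and Fen1 were not called (edgeR adjusted p = 0.0556, 0.0633 and 0.0762). Depth limited the members little, the lowest level of any in a library being 24.3 CPM (Bub1 in RP 1).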
